A study of Mus musculus with 6 samples.

Results

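The platelet-derived growth factors and their receptors were followed in mouse cardiac fibroblasts with a knockout of Acta2, which encodes α-smooth muscle actin. The genes were taken by symbol from the deposited table and comprise the 4 ligand genes Pdgfa, Pdgfb, Pdgfc and Pdgfd and the 2 receptor genes Pdgfra and Pdgfrb, which are 6 of its 25746 genes. RNA-seq covered 2 Acta2 knockout (KO) and 2 wild-type (WT) samples, and ATAC-seq, which cuts open chromatin with a transposase, covered 1 KO and 1 WT sample. Per the labels, the cells were Acta2 fl/fl (KO) or WT fibroblasts. Cells of both genotypes received Cre from an adenovirus (Adeno-Cre) and then TGFβ for 2 days. The same labels also describe fibroblasts sorted by eGFP from a Tcf21 lineage, in which a MerCreMer was switched on by tamoxifen (75 mg per kg body weight daily over 5 days, begun at 6 weeks of age) and infarction by ligation of the left coronary artery followed at 9 weeks, with a further tamoxifen course around it and Carprofen against pain. They do not say which of these preparations each library came from, and for cells given Adeno-Cre the fraction recombined is not stated. The labels do not state whether replicates are separate cultures or animals. The p-values therefore reflect the spread between these libraries alone, and that spread may be technical.

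PDGF ligands are secreted dimers that bind receptor tyrosine kinases on mesenchymal cells. The A and C chains act mainly through the α receptor and the D chain mainly through the β receptor, while the B chain binds both. The C and D chains are secreted in a latent form that proteases activate. In the heart the α receptor is a standard marker of fibroblasts and the β receptor a standard marker of pericytes and other mural cells, and PDGF signalling drives fibroblast proliferation and matrix production after injury.

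The 4 RNA libraries held 8429166 to 11370115 estimated counts. Acta2 stood at 256 and 266 CPM in KO libraries against 2186 and 2200 CPM in WT, where CPM stands for the estimated count relative to the scaled library total. Its log2 fold change was -3.07 (edgeR quasi-likelihood test, adjusted p = 1.59e-32), and the WT libraries were the high ones, as their labels say. All 10 fibroblast markers were detected in each library, and 8 of them were lower and 1, Gsn, higher in KO (summed level 3963 and 3899 CPM in KO, 5023 and 4813 CPM in WT). Genes listed as markers of other cells also moved, where 18.3% of all tested genes were higher and 17.4% lower in KO. Endothelial markers summed to 471 and 477 CPM in KO libraries and 361 and 339 CPM in WT, with 8 of 10 higher. Eng alone made up 355 ± 1.69 CPM of this sum in KO libraries and 275 ± 13.3 CPM of it in WT libraries (SD, n = 2). Macrophage markers summed to 169 and 171 CPM in KO libraries and 94.5 and 89.3 CPM in WT, with 7 of 10 higher, 3 untested and Fcgr1 at 0. Lyz2 alone made up 95.5 ± 2.49 CPM of this sum in KO libraries and 50.8 ± 2.82 CPM of it in WT libraries (SD, n = 2). Ptprc, which was not tested, had 11 and 9 estimated counts in KO libraries and 5 and 1 in WT. Smooth muscle markers summed to 252 and 240 CPM in KO libraries and 102 and 115 CPM in WT, with 4 of 6 higher. Cnn1 alone made up 146 ± 7.56 CPM of this sum in KO libraries and 56.9 ± 6.51 CPM of it in WT libraries (SD, n = 2). Pericyte markers summed to 44.8 and 47.8 CPM in KO libraries and 51.3 and 52.2 CPM in WT, with 5 of 9 tested, 1 of them higher, 3 lower, and Higd1b at 0. The higher one, Mcam, made up 22.5 ± 0.204 CPM of this sum in KO libraries and 10.5 ± 2.39 CPM of it in WT libraries (SD, n = 2). Platelet markers, whose cells carry PDGF, summed to 15.2 and 15.3 CPM in KO libraries and 6.92 and 6.86 CPM in WT, with 2 of 8 higher and Treml1 at 0. Of 8 cardiomyocyte markers 1 was tested and was lower, and Pln was at 0. Whether other cells or the fibroblasts themselves made these transcripts was not tested, nor was any part of other cells in the results below. In bulk RNA fewer cells of a type and less RNA per cell cannot be told apart.

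Per unit length, the 6 genes spanned a wide range that was ordered alike in both genotypes. On the TPM scale, computed here from the estimated counts and the length of all annotated exons, Pdgfd was the most abundant with 78.0 and 79.0 TPM in KO and 69.3 and 81.2 TPM in WT. Pdgfa followed with 44.5 and 43.9 TPM in KO and 37.6 and 42.9 TPM in WT. The receptors came next, Pdgfrb at 37.8 and 35.1 TPM in KO and 35.9 and 35.6 TPM in WT. Pdgfra was the lower receptor in every library, at 16.5 and 16.9 TPM in KO and 18.7 and 18.6 TPM in WT. The last places were taken by ligands. Pdgfc had 2.10 and 3.82 TPM in KO and 4.34 and 3.65 TPM in WT, and Pdgfb 0.876 and 0.615 TPM in KO and 0.546 and 0.293 TPM in WT. Pdgfa exceeded Pdgfrb within each library, but over the 4 libraries their ranges overlapped, whereas all other neighbours in this order stood apart. The order was the same when the longest transcript gave the length. Transcripts of both receptors and of ligands for each were thus present in all 4 libraries.

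**Figure D1:**
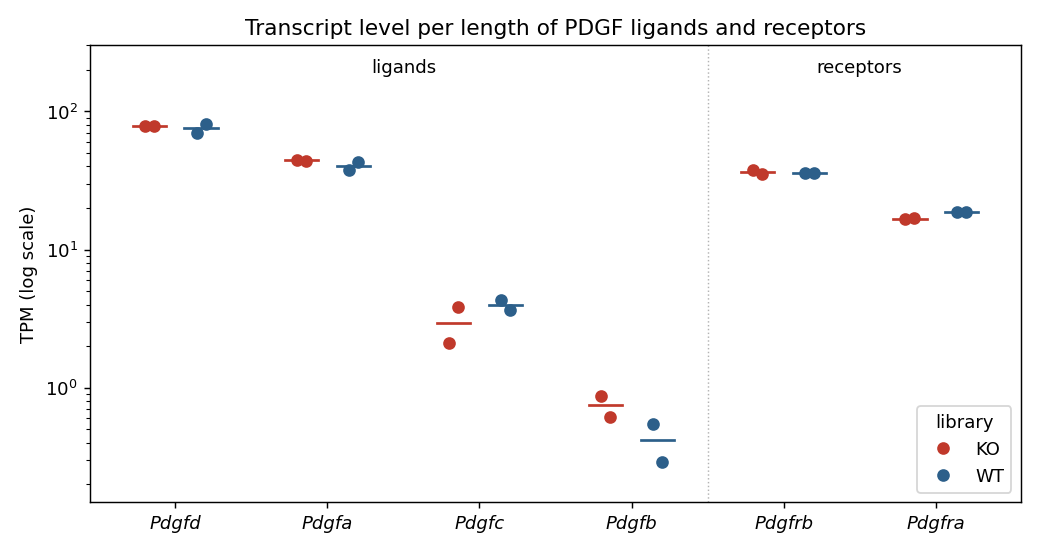
Transcript level per length (TPM, log axis) of each PDGF ligand and receptor gene, with 1 point per library, KO in red left of WT in blue, and a bar at the mean of 2. Pdgfd lies highest at a mean of 76.9 TPM over the 4 libraries and Pdgfb lowest at 0.583 TPM, and the order of the genes is the same in both genotypes.

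Of the 6 genes, 5 had enough counts to be tested, and 1 of these 5, Pdgfra, fell in KO. None rose and 4 were not called (edgeR, and at an unadjusted p under 0.05 again Pdgfra alone), against 35.7% of all tested genes called, 18.3% higher and 17.4% lower. The median log2 fold change of the 5 was -0.0002, beside 0.0014 over all 12192 tested genes. The KO and WT libraries did not overlap for Pdgfa, Pdgfra and the untested Pdgfb, which are 3 of the 6, against 67.1% of all tested genes. None of the 5 was called with DESeq2, which called 16.9% of genes, or with an assumed biological coefficient of variation (BCV) of 0.1 or 0.2, with which edgeR called 14.6% and 3.26%.

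Pdgfa, on the minus strand of chromosome 5 (138976014 to 138997370 in mm10, ENSMUSG00000025856), encodes the A chain, the classical α receptor ligand made by many cell types. It had 570.43 and 535.29 estimated counts in KO libraries and 360.84 and 438.71 in WT, which is 49.4 ± 0.801 CPM in KO libraries and 45.9 ± 3.71 CPM in WT libraries (SD, n = 2). Both KO libraries lay above both WT libraries, the second of them by less than 1 CPM. The log2 fold change of 0.10 (SE 0.079) did not pass the test (edgeR, adjusted p = 0.331), with a 95% interval of 0.960 to 1.20 for the fold. An antisense gene, 6330403L08Rik, overlaps it, 16.3% of its 100-base windows occur in another gene, and counting without strand cannot separate the pair. RefSeq lists a promoter of Pdgfa that belongs to the cluster of inner starts in the gene. It is shown because 2 GC boxes, the letters GGGCGG bound by Sp1-type factors, lie -93 and -86 bases from the start. The capitals mark them, on the strand opposite to the one printed, in a window of 73.3% G and C with 37 CpG sites (RefSeq, GRCm38.p6, chr5:138994895-138995194, minus strand).
Pdgfa promoter 2: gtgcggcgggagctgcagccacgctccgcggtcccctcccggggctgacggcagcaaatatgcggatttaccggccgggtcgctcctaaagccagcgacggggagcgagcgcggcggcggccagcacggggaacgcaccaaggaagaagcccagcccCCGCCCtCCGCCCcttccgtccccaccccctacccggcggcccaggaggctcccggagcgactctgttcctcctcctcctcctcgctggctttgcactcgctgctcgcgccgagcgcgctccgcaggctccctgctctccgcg

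Pdgfb, on the minus strand of chromosome 15 (79995874 to 80014977, ENSMUSG00000000489), encodes the B chain, which endothelial cells use to recruit pericytes. It was close to the detection limit, with 15 and 10 estimated counts in KO libraries and 7 and 4 in WT. Both KO libraries had more, also as CPM (1.31 and 0.913 CPM in KO, 0.839 and 0.442 CPM in WT), but it did not pass the filter on low counts and was not tested. With no filter its log2 fold change was 0.81 (edgeR, adjusted p = 0.360). Where leaving out 1 library let it pass the filter, it was 1.04 without KO replicate 2, 1.31 without WT replicate 1 and 0.40 without WT replicate 2 (adjusted p = 0.284 to 0.739). In the same KO libraries 8 of 10 endothelial markers were higher, against 18.3% of all tested genes. Of 8 platelet markers 3 were tested, of which Pf4 and Ppbp were higher and Itga2b was not called. Macrophage and smooth muscle markers were higher there too, as given above, and a link of any of these to Pdgfb was not tested.

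Pdgfc, on the plus strand of chromosome 3 (81036416 to 81214040, ENSMUSG00000028019), encodes the latent C chain, a mesenchymal ligand of the α receptor. Its estimated counts were 44 and 76 in KO and 68 and 61 in WT, or 3.86 and 6.94 CPM in KO libraries and 8.15 and 6.75 CPM in WT. KO replicate 1 was low and KO replicate 2 lay between the WT libraries. The log2 fold change of -0.47 (SE 0.234) did not pass (edgeR, adjusted p = 0.123), with a fold of 0.724 and a 95% interval of 0.519 to 1.01. The value rested on 1 library, since it was -0.94 without KO replicate 2 (adjusted p = 0.00621) and -0.10 without KO replicate 1 (adjusted p = 0.800), the lowest and the highest adjusted p over its alternatives. The promoter below holds a CArG box, the motif of serum response factor (SRF), -17 bases from the start. It also holds 2 TEAD motifs (GGAATG), one on each strand at -137 and 38. All 3 are in capitals (RefSeq, GRCm38.p6, chr3:81036166-81036465, plus strand, 55.0% G and C, 8 CpG sites). It is shown because SRF has coactivators that are known to respond to actin. The CArG box was found in 1.63% and the TEAD motif in 14.7% of 32851 RefSeq promoters of this length.
Pdgfc promoter: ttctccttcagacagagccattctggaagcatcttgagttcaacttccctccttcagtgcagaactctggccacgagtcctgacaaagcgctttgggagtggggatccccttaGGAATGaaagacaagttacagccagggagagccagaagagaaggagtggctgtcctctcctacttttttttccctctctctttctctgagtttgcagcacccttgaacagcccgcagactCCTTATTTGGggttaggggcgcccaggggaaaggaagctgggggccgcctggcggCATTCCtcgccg

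Pdgfd, on the plus strand of chromosome 9 (6168584 to 6378850, ENSMUSG00000032006), encodes the latent D chain, the β receptor ligand, and was the ligand with the highest level. It had 1012 and 973 estimated counts in KO libraries and 673 and 841 in WT, or 88.7 ± 0.086 CPM in KO libraries and 86.9 ± 8.71 CPM in WT libraries (SD, n = 2). The KO libraries nearly coincided and lay between the WT libraries, which had 80.7 and 93.0 CPM. The log2 fold change was 0.03 (SE 0.063, edgeR, adjusted p = 0.768), and the 95% interval of the fold ran from 0.932 to 1.12. Its promoter is shown for contrast with that of Pdgfc. It carries the letters TATAAA (in capitals), searched as a TATA box, at -160 from the RefSeq start. These letters were found in 13.6% of the promoters, and whether they act as a TATA box here was not tested. The printed window ends before the gene start given above. It holds no exact match to the CArG box pattern and no TEAD motif, and inexact matches were not searched (RefSeq, GRCm38.p6, chr9:6168236-6168535, plus strand, 56.7% G and C).
Pdgfd promoter: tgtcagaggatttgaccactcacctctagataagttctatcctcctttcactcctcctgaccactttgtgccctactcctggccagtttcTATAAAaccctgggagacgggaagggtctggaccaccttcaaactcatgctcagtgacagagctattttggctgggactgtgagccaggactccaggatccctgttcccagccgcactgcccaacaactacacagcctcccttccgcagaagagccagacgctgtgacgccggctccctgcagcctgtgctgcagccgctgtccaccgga

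Pdgfra, on the plus strand of chromosome 5 (75152292 to 75198215, ENSMUSG00000029231), encodes the α receptor and was the gene that fell. Its estimated counts were 681.76 and 663 in KO and 578 and 613 in WT, from smaller WT libraries. Scaled, it had 59.7 and 60.5 CPM in KO libraries and 69.3 and 67.8 CPM in WT, so both KO libraries lay below both WT libraries and the genotypes did not overlap. The mean level was 60.1 ± 0.543 CPM in KO libraries and 68.6 ± 1.07 CPM in WT libraries (SD, n = 2). The log2 fold change was -0.19 (SE 0.066, edgeR, adjusted p = 0.0270), a fold of 0.877 with a 95% interval of 0.798 to 0.964. This call was lost with DESeq2 (adjusted p = 0.218), with no scaling beyond library size (0.0507) and on leaving out any 1 of the 4 libraries (0.0523 to 0.123), over a range of 0.0229 to 1.0 for all alternatives. In the same libraries 8 of 10 fibroblast markers were lower too, against 17.4% of all tested genes. The median log2 fold change of the 10 was -0.49, which is further than that of Pdgfra. Of the windows of Pdgfra, 3.30% occur in the overlapping antisense genes Gm42802 and Gm42803.

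Pdgfrb, on the plus strand of chromosome 18 (61045150 to 61085061, ENSMUSG00000024620), encodes the β receptor. It had 851 and 752 estimated counts in KO libraries and 605 and 640 in WT, or 74.6 and 68.6 CPM in KO libraries and 72.6 and 70.8 CPM in WT. The WT libraries lay between the KO libraries. The means were 71.6 ± 4.20 CPM in KO libraries and 71.7 ± 1.25 CPM in WT libraries (SD, n = 2), and the log2 fold change was -0.00 (SE 0.065, edgeR, adjusted p = 0.999). The 95% interval of the fold ran from 0.911 to 1.10. Of the 9 pericyte markers, of cells in which this receptor is typical, 5 were tested. Steap4 (-1.15), Rgs5 (-0.60) and Cspg4 (-0.58) fell, Mcam (1.10) rose, and Notch3 (0.37) was not called (edgeR). The 4 untested markers had at most 4 estimated counts in any library.

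The balance between receptors and between ligands was described by shares and ratios within each library, where library scaling has no part. The summed levels given with them do depend on the library total. Pdgfra made up 30.4% and 32.5% of the receptor transcripts (TPM) in KO and 34.3% and 34.4% in WT, so both KO libraries were below both WT libraries. On this scale of merged exon length the ratio of Pdgfrb to Pdgfra was 2.28 and 2.08 in KO and 1.92 and 1.91 in WT. It depends on the length used. With the longest transcript as length, Pdgfra made up 38.9% and 41.2% in KO and 43.1% and 43.2% in WT. Summed receptor levels were 54.3 and 52.1 TPM in KO and 54.6 and 54.2 TPM in WT, and the genotypes overlapped. Among the ligands, Pdgfd made up 62.2% and 62.0% in KO and 62.0% and 63.4% in WT. Pdgfa gave 35.0 ± 0.667% in KO and 33.5 ± 0.106% in WT, Pdgfc 2.34 ± 0.938% in KO and 3.37 ± 0.729% in WT, and Pdgfb 0.591 ± 0.152% in KO and 0.359 ± 0.184% in WT (SD, n = 2). The ligand pool was thus mostly D chain and A chain in all 4 libraries, with a sum of 125 and 127 TPM in KO and 112 and 128 TPM in WT. With 2 libraries against 2 no permutation test can go below p = 0.333 (exact, two-sided), so none was used.

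The lists of related genes hold the VEGF ligands and receptors and the receptors of the KIT and CSF1 type. Ligands of the KIT and CSF1 type are listed through their receptors. Several of the listed genes changed. Of 9 related ligands tested, 4 rose, 1 fell and 4 were not called, with a median log2 fold change of 0.33. That is 55.6% called, against 35.7% of all tested genes called and 18.3% higher in KO. Pgf, placental growth factor, rose to 212 ± 7.62 CPM in KO libraries against 85.8 ± 0.918 CPM in WT libraries (SD, n = 2; log2 fold change 1.31, edgeR, adjusted p = 1.24e-17), a fold of 2.47 (95% interval 2.30 to 2.66). Csf1, the macrophage growth factor, rose by a log2 fold change of 0.33, Kitl, the ligand of KIT, by 0.37 and the vascular growth factor gene Vegfa by 0.38. Vegfd fell to 60.04 ± 2.99 CPM in KO libraries against 92.7 ± 5.62 CPM in WT, a log2 fold change of -0.63. Of the 6 related receptor genes, 5 were tested, and 60.0% of these were called. Flt4 and Kdr rose (0.82 and 0.51), Flt1 fell (-0.64), and Kit (0.07) and Csf1r (0.23) were not called. The calls of Kdr and Vegfa were lost with DESeq2 (adjusted p = 0.0675 and 0.0663). Flt3 was at 0 in all 4 libraries. The receptors of VEGF are typical of endothelial cells, whose markers were also higher in KO, with 8 of 10 called. Whether these listed genes as a class differ from the PDGF genes was not tested.

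**Figure D2:**
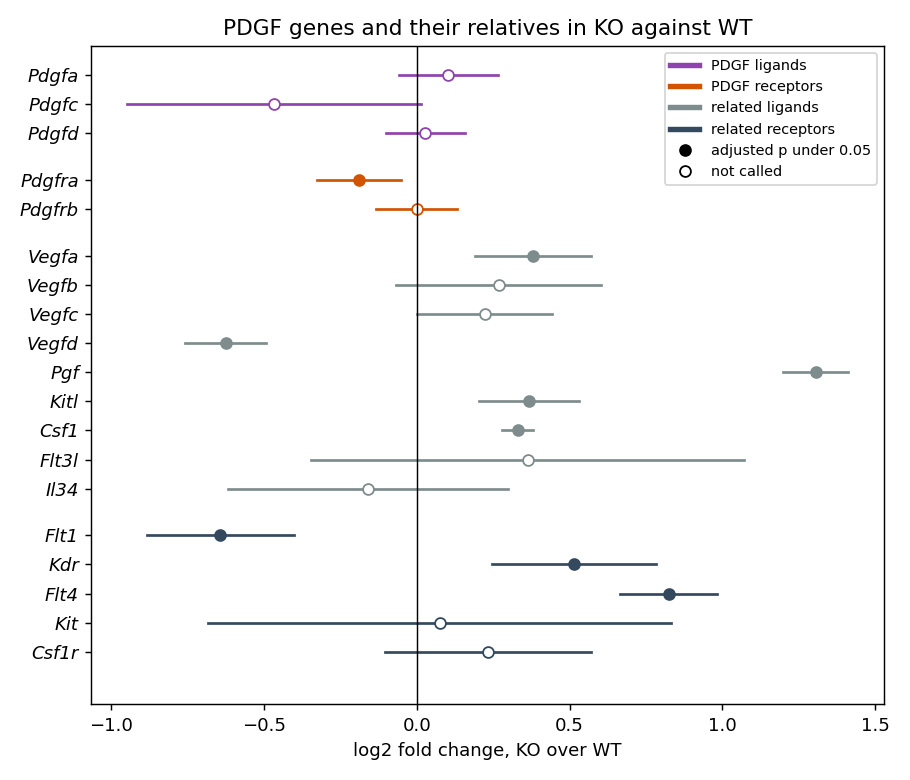
Log2 fold change (KO over WT) of the tested PDGF ligands and receptors and of the related ligands and receptors, with 95% intervals, filled where the adjusted p is under 0.05. Among the PDGF genes Pdgfra alone is filled, at -0.19, while Pgf reaches 1.31 and Vegfd -0.63.

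Around the ligands, genes that process, bind or present PDGF moved in both directions. Of 11 tested genes 2 rose, 4 fell and 5 were not called, and the median log2 fold change was -0.07. That is 54.5% called, against 35.7% of all tested genes called and 17.4% lower in KO. With DESeq2 the call of St14 was lost (adjusted p = 0.101), leaving 1 rise and 4 falls. The binders fell. Sparc, a matrix protein that binds PDGF B chains, fell to 5403 ± 90.8 CPM in KO libraries against 6389 ± 112 CPM in WT libraries (SD, n = 2; log2 fold change -0.24, edgeR, adjusted p = 2.86e-11), and Thbs1, the thrombospondin, by 0.26 on the log2 scale. Plat, tissue plasminogen activator, which activates the C chain, fell to 133 ± 0.548 CPM in KO libraries against 182 ± 3.46 CPM in WT (-0.44). St14, matriptase, and Plau, urokinase, activate the human D chain. St14 rose by 0.70, while Plau had 0.61 and was not called (adjusted p = 0.235). Among the proprotein convertases, which cut A and B chain precursors, Pcsk6 fell by 1.07 and Pcsk7 rose by 0.55, and Furin (-0.23) and Pcsk5 (0.24) were not called. The co-receptor genes Nrp1 (0.09) and Lrp1 (-0.07) were not called.

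Downstream of the receptors, 21 of 22 listed adaptor, kinase and transcription factor genes were tested. Of these 3 rose, 3 fell and 15 were not called, so that 28.6% were called against 35.7% of all tested genes, with a median log2 fold change of 0.06. Stat3, a transcription factor activated by the receptors, fell to 226 ± 1.30 CPM in KO libraries against 273 ± 1.45 CPM in WT libraries (SD, n = 2; log2 fold change -0.27, edgeR, adjusted p = 7.55e-06). Pik3r1, the regulatory subunit of PI3 kinase, fell by 0.39 and the adaptor gene Nck1 by 0.25 on the log2 scale. Grb2, the adaptor to RAS, rose by 0.41, Stat5b by 0.56 and Rasa1, which turns RAS off, by 0.22. DESeq2 left the call of Stat3 alone, and the other 5 were lost (adjusted p = 0.0705 for Pik3r1, 0.218 for Nck1, 0.0774 for Grb2, 0.170 for Stat5b and 0.261 for Rasa1). The log2 fold change of Grb2 was 0.18 without WT replicate 2 (edgeR, adjusted p = 0.214) and 0.65 without WT replicate 1. The call of Pik3r1 was also lost without WT replicate 2 (0.0543), and that of Stat5b without KO replicate 2 (0.111) or WT replicate 1 (0.0523). Without WT replicate 1 the list held 3 calls. Phosphatases, ubiquitin ligases and feedback inhibitors that end the signal gave 1 rise, 3 falls and 9 without a call among 13 tested, 30.8% called, with a median log2 fold change of 0.03. Spred2, an inhibitor of RAS and ERK signalling, fell to 3.83 ± 1.15 CPM in KO libraries against 10.4 ± 1.81 CPM in WT (-1.42, edgeR, adjusted p = 9.25e-06). The feedback inhibitors Spry2 and Spry1 fell by 0.44 and 0.58, the call of Spry1 being lost with DESeq2 (adjusted p = 0.0735), and the receptor phosphatase gene Ptprj rose by 0.93. In these libraries 8 of 10 fibroblast markers were lower and 1 was higher, against 17.4% of all tested genes lower. Of the endothelial markers 8 of 10 were higher, as were the 7 tested macrophage markers, against 18.3% of all tested genes. A link of these markers to the signalling genes was not tested.

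Immediate early genes, which growth factors induce within minutes, rose in 5 of 11 tested cases, against 18.3% of all tested genes higher in KO, and were not called in 6, with a median log2 fold change of 0.23. Ier3 rose to 282 ± 0.584 CPM in KO libraries against 183 ± 11.6 CPM in WT libraries (SD, n = 2; log2 fold change 0.62, edgeR, adjusted p = 1.79e-11). Nr4a1 rose by 0.93, Junb by 0.42, Jun by 0.34 and Fosl1 by 0.23. Egr1 (0.06), Fos (0.07) and Myc (0.03), the classical genes of the serum and PDGF response, were not called. With Egr3, which had 2 and 4 estimated counts in KO libraries and 6 and 10 in WT and was not tested, the list holds 12 genes. Macrophage markers, with a median log2 fold change of 1.09 for the 7 tested, rose in the same libraries. PDGF and many other stimuli induce immediate early genes, and what raised them here was not tested.

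**Figure D3:**
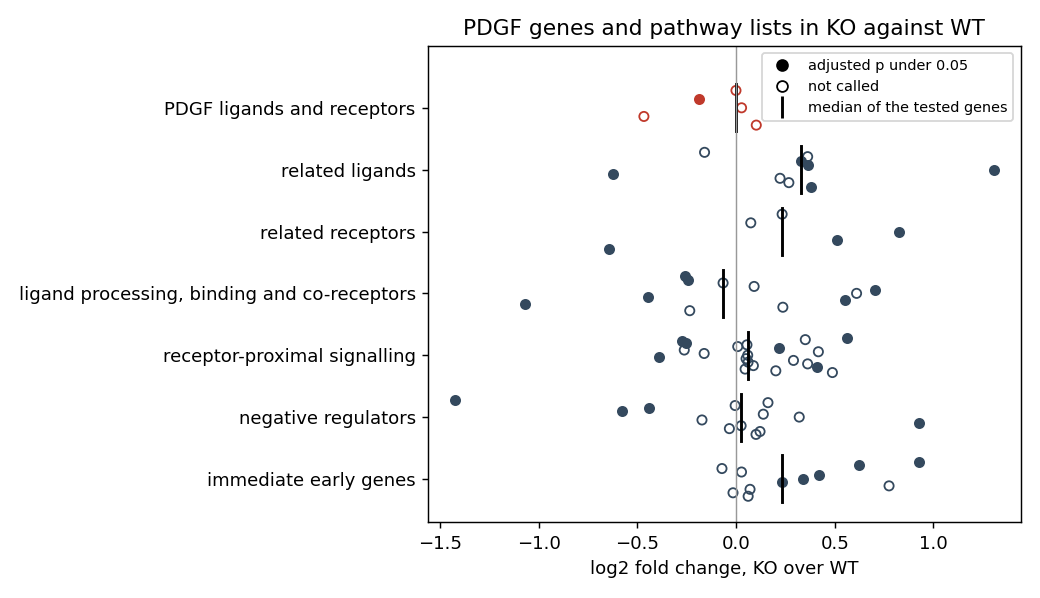
Log2 fold change (KO over WT) of each tested gene of the PDGF family (red) and of 6 lists of relatives and pathway genes (dark blue), filled where the adjusted p is under 0.05, with a bar at the median. The PDGF family has its median at -0.0002 with 1 filled point, and the immediate early genes have 5 filled points, all above 0.

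Open chromatin was called at the promoters of all 6 genes in both libraries. A peak overlapped the window of 1 kb on either side of the gene start in KO and in WT for 6 of 6 genes, beside 92.8% of 12190 tested genes with a start in the annotation. The folds below are the authors' own value for each peak over the library background. With 1 library for each genotype they rank peaks within a list and show no difference between genotypes. The Pdgfrb start lay in a peak 5318 bases wide with a fold of 17.4 in KO and 5363 bases wide with a fold of 18.5 in WT, higher than 89.1% and 93.0% of the peaks in its list. The peak at Pdgfb, a gene near the count floor, had a fold of 14.5 in KO and 9.86 in WT, higher than 84.5% and 77.0% of the peaks. The start of the ligand with the lowest RNA level was thus covered in both libraries. The Pdgfc peak had a fold of 13.6 in KO and 11.5 in WT and contained the whole promoter printed above, CArG box included. The Pdgfd peak had a fold of 8.93 in KO and 9.04 in WT, the lowest among the peaks over starts. This gene had the highest RNA level, but a fold is 1 value per peak and the summits lay at different places. The Pdgfd summits lay at -174 and -241 bases from the gene start in KO and WT. Those of the Pdgfb peak lay 2691 and 2869 bases inside the gene. For the Pdgfa peaks over the start they lay 1065 and 2627 bases inside. The folds therefore do not compare openness at the starts themselves. At Pdgfa a WT peak of 5897 bases with a fold of 14.4 spanned the ground of 2 KO peaks with folds of 13.2 and 12.8, and the printed GC-rich promoter lay inside in both libraries.

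**Figure D4:**
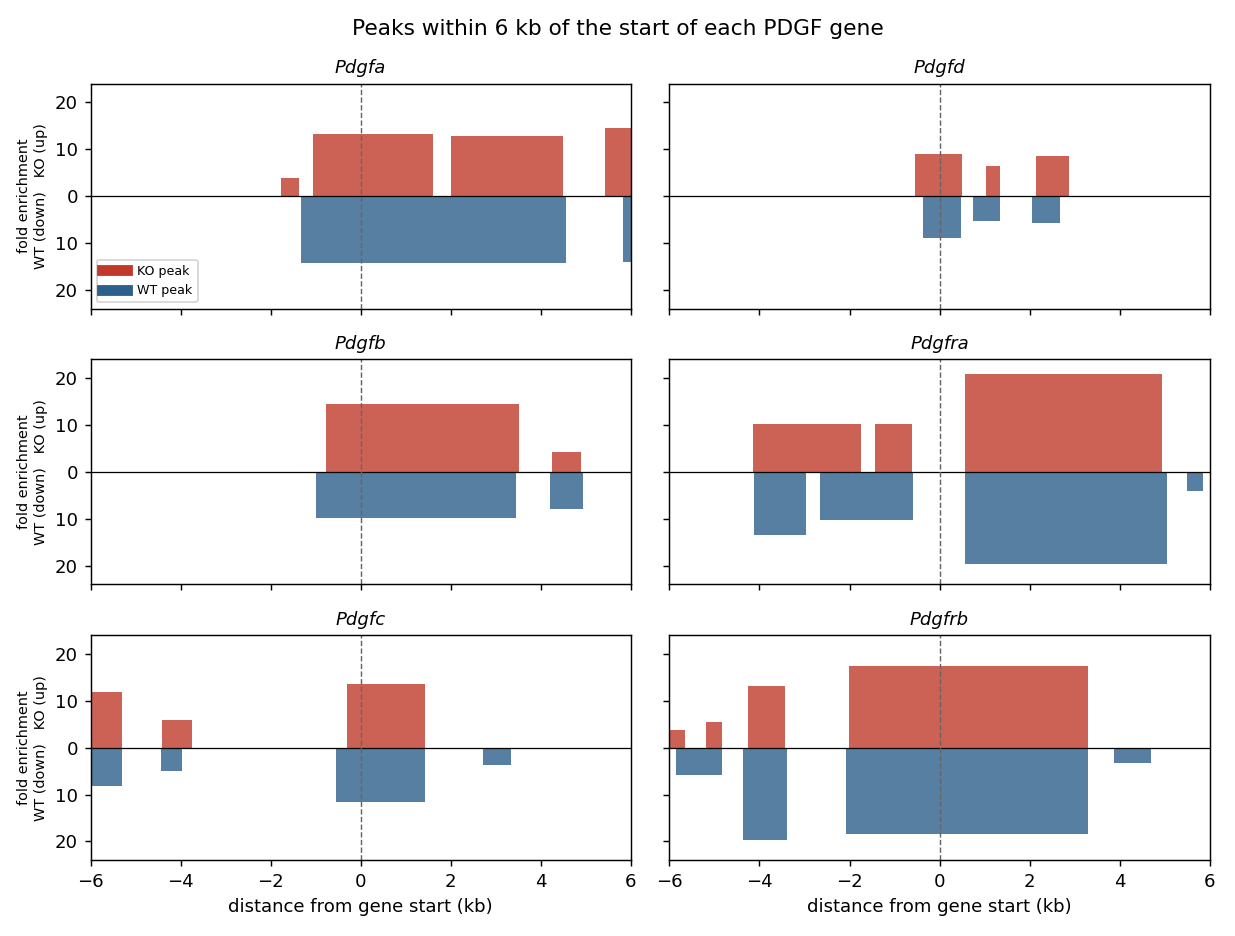
Peaks within 6 kb of the start of each PDGF gene, KO upward in red and WT downward in blue, with the distance along the gene in kb on the x axis and the authors' fold enrichment as height. A peak covers the start (dashed line) in both libraries at 5 genes, while at Pdgfra the start lies in a gap between peaks.

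Pdgfra differed from the other 5 in where its peaks lay. Its gene start was in no peak in either library, a state shared by 9.73% of tested genes, and 86.8% of them had a peak over the start in both. Upstream, a peak ended 622 bases before the start in KO and 583 bases before it in WT, with folds of 10.2 and 10.3. Downstream, a broad peak began 565 bases after the start in KO and 570 bases after it in WT, with folds of 20.8 and 19.7, higher than 92.9% and 94.2% of the peaks in its list. It ran from 75152857 to 75157227 in KO and from 75152862 to 75157337 in WT, with summits at 75156200 and 75156266. Of the 9 annotated Pdgfra transcripts, 6 begin inside a peak in both lists, and the starts at 75152292, 75152306 and 75152352 do not. For the other genes every annotated start lay in a peak of both lists (7 for Pdgfa, 4 for Pdgfb, 3 for Pdgfc, 3 for Pdgfd and 2 for Pdgfrb). The promoter window at the gene start is shown because no peak covers it, with 0 of 300 bases covered in KO and in WT, whereas the windows printed for Pdgfa, Pdgfc and Pdgfd were covered whole in both. Capitals are absent because none of the searched motifs (AP-1, TEAD, GC box, TATA box, E-box and CArG box) occurs in it. It has 51.0% G and C and 5 CpG sites, beside a median of 52.7% G and C over RefSeq promoters (RefSeq, GRCm38.p6, chr5:75152001-75152300, plus strand).
Pdgfra promoter: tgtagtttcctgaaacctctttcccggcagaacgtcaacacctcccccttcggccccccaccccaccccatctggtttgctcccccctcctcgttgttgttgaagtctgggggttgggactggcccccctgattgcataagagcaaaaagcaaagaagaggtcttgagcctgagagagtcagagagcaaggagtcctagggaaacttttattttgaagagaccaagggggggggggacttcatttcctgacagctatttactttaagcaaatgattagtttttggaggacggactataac
The AP-1 motif searched was TGANTCA and the E-box CAGCTG, on both strands, and 7.81% and 16.3% of RefSeq promoters held them, with 35.7% holding a GC box. These matches are letters in a window and show no binding. The gene counts do not tell which start made the Pdgfra transcripts.

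**Figure D5:**
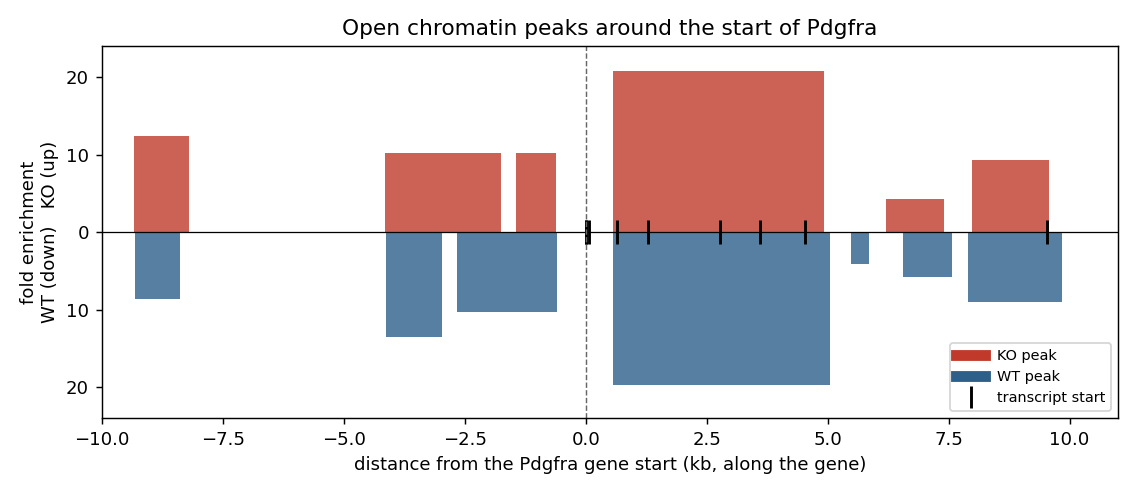
Peaks around the Pdgfra start, KO upward in red and WT downward in blue, as the authors' fold enrichment against the distance from the gene start in kb, with black ticks at the starts of annotated transcripts. The highest peak in view, with a fold of 20.8 in KO and 19.7 in WT, begins 565 and 570 bases downstream of the start, and 6 of the 9 transcript starts lie in peaks.

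Across the genes with 10 kb on either side, most peaks were found in both lists. The KO list had 62 such peaks and the WT list 57, covering 81641 and 80427 bases. Of these, 51 KO peaks (82.3%) overlapped a WT peak and 48 WT peaks (84.2%) overlapped a KO peak by at least 1 base, beside 76.3% and 75.6% over the whole lists. With 50 kb on either side these shares were 76.1% and 82.0%, and with 50% of a peak required to overlap 71.0% and 70.2%. Peaks with no counterpart were low in their lists, with folds of 2.98 to 5.53 for 11 KO peaks and 3.29 to 4.52 for 9 WT peaks. The shared peaks had median folds of 8.50 in KO and 7.60 in WT. Pdgfb had the most uneven count, 10 peaks in KO and 5 in WT, and all 5 WT peaks had a KO partner. Its strongest peak lay upstream of the gene with summits at 80024710 in KO and 80024627 in WT and folds of 23.4 and 16.0, higher than 95.1% and 90.2% of the peaks in its list. Pdgfrb had 14 peaks in KO and 16 in WT, among them an intronic one with summits at 61071824 and 61071836 and folds of 21.3 and 15.2. It also had an upstream one with summits at 61041317 and 61041287 and folds of 13.2 in KO and 19.7 in WT. Pdgfc, with 7 peaks in KO and 8 in WT, had an intronic peak with summits at 81071220 and 81071287 that outranked 74.8% of KO peaks and 91.2% of WT peaks. Pdgfa had 10 peaks in KO and 7 in WT, Pdgfd 10 and 9, and Pdgfra 11 and 12.

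Other genes were searched for levels that followed each of the 5 tested PDGF genes over the 4 libraries. The measure was the distance between centred log2 CPM values, over the 10094 tested genes whose log2 CPM averaged at least 2. The nearest to Pdgfra were Itm2a (distance 0.00652), Eef1d (0.0158) and Osbpl9 (0.0165), and 148 genes lay within 0.05. Pdgfrb was nearest to Coq2, Bscl2 and Slc25a14, with 88 genes within that distance. Pdgfd had Efnb2, an ephrin ligand, at 0.00455, then Prkd2 and Ythdf3, with 35 genes within 0.05. Pdgfa had Tbk1, Mrs2 and Hnrnpll and 43 genes within it, and Pdgfc had none, its nearest being Fam221b at 0.0781, Eml2 and Zfp523. With 4 libraries such a likeness describes these values only. Around the PDGF genes, 8 genes of the table start within 100 kb of a PDGF gene start, and 4 of them were tested. Rpl3, a ribosomal protein gene 76.9 kb from Pdgfb, fell by 0.28 on the log2 scale (edgeR, adjusted p = 1.2e-07). Cbx7 (0.26) and Syngr1 (0.34), also near Pdgfb, and Csf1r, which starts 55.4 kb from Pdgfrb, were not called. The others, Gsx2 and Gm42803 near Pdgfra and Slc6a7 and Cdx1 near Pdgfrb, had at most 2 estimated counts in any library.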

How the data were processed

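The titles group the samples by genotype, with 2 KO and 2 WT RNA-seq libraries and 1 ATAC-seq library of each. Per the labels, RNA reads were trimmed with Trim Galore 0.6, inspected by FastQC, and STAR 2.5.3a aligned them to mm10. The deposited values are estimated counts per gene, of which 10.8 to 12.2% are not whole. The counting program is not given in the sources used here. Whole counts had been assumed in planning, so the estimates were rounded and the planned test kept. Estimated counts divide reads between genes that share sequence, and strand is not stated to be kept. The KO totals were larger than the WT totals, which normalization corrects but which makes low WT counts less precise.

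Per the labels, ATAC-seq reads were trimmed, aligned with Bowtie2 2.3, filtered for unique alignments and duplicates, and peaks were called with MACS2 in each sample. The authors deposited peak lists (121748 peaks in KO, 123935 in WT) with a score, a fold enrichment ratio, a −log10 p-value and a −log10 q-value. The depth of these libraries is not known, and no shift of cut sites is stated.

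The test was the quasi-likelihood test of edgeR 4.0.16 (R 4.3.3) with genotype as its only term. Low genes were removed by filterByExpr with a minimum count of 10, libraries were scaled by TMM, and p-values were adjusted by Benjamini-Hochberg over the 12192 remaining genes, with 0.05 as threshold. Each SE was derived from the fold change and the F value. CPM is per TMM-scaled total. TPM uses merged exon lengths from GENCODE M21, which holds 25712 of the 25746 gene identifiers, 25548 of them at the same coordinates. Replicates of a genotype differed by more than sampling noise (chi-square per degree of freedom 1.99 in KO and 1.77 in WT), so all libraries were kept. The fit was tested on simulated data.

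Peaks were compared by an overlap of at least 1 base, with coordinates counted from 1. Promoter sequences came from the RefSeq table of GRCm38.p6, the assembly also called mm10 (250 bases before and 50 after a start). It was used for Pdgfa, Pdgfc, Pdgfd and Pdgfra. Motif positions are counted from the start base, 0, to the first letter of the match on the printed strand.

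Named genes are the PDGF genes, Acta2, up to 4 called genes per list with the smallest p, the 3 nearest genes by level, genes starting within 100 kb and marker genes that define a cell type. Other list members behind a small count, and the peaks named over the genes, were chosen after their values were seen. The PDGF genes and the lists were chosen with earlier results of these data known. DESeq2 1.42.0, other scalings and filters, an assumed biological coefficient of variation (BCV), a replicate block, the omission of each library, other lengths and other peak rules were tried.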

Additional observations from a re-analysis of the deposited data

How the results depend on the processing

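DESeq2 called 2058 genes against 4352 by edgeR, and an assumed BCV of 0.1 or 0.2, against a fitted 0.0311, left 1780 and 398. Leaving out 1 library gave 3392 to 3674. The count of PDGF genes called was 0 with DESeq2 (16.9% of genes called, and 0 of the 5 at an unadjusted p under 0.05), with library size scaling alone and with either BCV, and 0 to 1 without 1 library, the 1 being Pdgfc. Pdgfra kept its direction throughout but lost its call at -0.20 with DESeq2, -0.17 with library size only, -0.19 with either BCV and -0.21 to -0.18 without 1 library. Pdgfc ranged from -0.94 to -0.10 without 1 library, Pdgfd from -0.070 to 0.13, its sign turning without WT replicate 1, and Pdgfrb from -0.067 to 0.059. The sign of Pdgfrb turned at 0.021 with library size only, 0.0067 with upper quartile scaling and 0.0033 with no filter. Pdgfa ranged from 0.022 without WT replicate 1 to 0.19 without WT replicate 2 and kept its sign under each alternative. The causes were not tested.

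Calls per list at a BCV of 0.2 came to 0 for ligand processing, receptor-proximal, immediate early and related receptor genes, and 1 each for negative regulators and related ligands. At a BCV of 0.1 they came to 0 for receptor-proximal genes, 3 for immediate early genes and 2 for related ligands. DESeq2 left 1 receptor-proximal call, and leaving out 1 library left 3 to 5 of them. Of the 23 list genes picked by the naming rule, all called, DESeq2 kept 18, a BCV of 0.1 kept 14 and a BCV of 0.2 kept 2. No direction turned.

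Replicate numbers in the titles are not said to pair samples, and same-numbered deviations had a correlation of 0.000403. With the replicate block 4408 genes were called, and the log2 fold changes were 0.10 for Pdgfa, -0.48 for Pdgfc, 0.03 for Pdgfd, -0.19 for Pdgfra and -0.00 for Pdgfrb, with the same call.

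With longest transcripts as length, Pdgfra was 40.0% of the receptors in KO and 43.2% in WT and Pdgfd 52.3% and 52.9% of the ligands. With no length scale these were 45.7% and 48.9%, and 61.3% and 61.6%. Peaks over the genes with a partner in the other list were 86.7% of KO and 92.6% of WT peaks at a −log10 q-value of at least 10, 71.0% and 70.2% when 50% of a peak had to overlap, and 76.1% and 82.0% with 50 kb on either side. With 500 bases on either side of the start 5 of the 6 genes had a peak in both lists, as also when a peak had to cover the start, a rule added after seeing the data. Low counts of Pdgfb and Pdgfc limit both.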
